A study of Homo sapiens with 12 samples.

Results

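Hairpin line E is 1 of the 2 ALKBH5 knockdown lines of the study and holds 3 of its 12 RNA libraries, 1 each after 0, 8 and 12 h in actinomycin D. They were taken by the letter E in their column names and set against the 6 control libraries, 2 replicates of a non-targeting hairpin (shNS) at each of the same times. The cells of both arms were NOMO-1, a human acute myeloid leukaemia cell line of monocytic type, carrying a lentiviral hairpin and selected with puromycin. The titles name 2 hairpins against ALKBH5, and nothing ties the letter E to either of them. The treatment text of the labels speaks of lentivirus against FTO and of the drugs CS1 and CS2. Groups were taken from the titles, which give ALKBH5 hairpins and actinomycin D. Line E is 1 transduced line with 1 library a time, so a difference between it and shNS cannot be told apart from a difference between any 2 transduced lines.

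ALKBH5 is an iron-dependent enzyme that removes the methyl group of N6-methyladenosine (m6A), the most common internal mark on mRNA. The mark is written by a complex around METTL3 and METTL14, can also be removed by FTO, and is read by YTH-domain proteins, some of which hasten the decay of marked mRNAs. Actinomycin D blocks transcription, so the fall of an mRNA in the drug follows its decay. In acute myeloid leukaemia ALKBH5 has been studied as a gene that leukaemia stem cells depend on.

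The deposited value is an expression signal per gene with no counts, so read depth is unknown. The 46 ERCC spike-in transcripts had medians between 29.9 and 30.8 in line E and between 30.4 and 33.1 in shNS, while the summed gene signal was 945067 in line E and 937164 and 826000 in shNS at 0 h, and 143765 in line E and 193639 and 167376 in shNS at 12 h. The signal is therefore read per unit of spike-in. The 18S ribosomal RNA row stood at 32489 in line E and at 55899 and 35578 in shNS at 0 h, with shNS replicate 1 the highest. At 8 h it stood at 14781 in line E and at 19498 and 7323 in shNS, with shNS replicate 2 the lowest. Of 10 monocytic marker genes 6 were measured, and their summed signal at 0 h was 962 in line E and 603 and 579 in shNS. No erythroid, megakaryocyte, epithelial or fibroblast marker was among the 9529 genes.

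Line E and shNS were compared on log2(signal + 1) with limma, matched by time, and a gene was called at a Benjamini-Hochberg adjusted p under 0.05 over all 9529 genes. Across the 3 times 2133 genes rose in line E, which is 22.4% of all genes, and 1883 fell, which is 19.8%. Counts of list members called across times are read against these shares. The line E library lay above both shNS libraries at all 3 times for 2374 genes (24.9%) and below both for 1436 (15.1%), and 1958 of the called rises (20.5% of all genes) and 1273 of the called falls (13.4%) met that condition. The median change of all genes was 0.01. These p-values take the libraries of a line as independent and the spread as shared among genes. A list's calls on the mean of each line or replicate are read against those of all genes, given next. On the mean of each line or replicate, 585 genes rose and 485 fell, and with each gene's own spread, an alternative added after the data were seen, 1517 rose and 704 fell.

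ALKBH5, on chromosome 17 (GRCh38, chr17:18183078-18209954), was low in line E. Its signal in line E was 21.2 at 0 h, 4.29 at 8 h and 0.973 at 12 h, whereas the shNS replicates had 84.3 and 78.6 at 0 h, 35.9 and 32.1 at 8 h and 8.22 and 8.30 at 12 h. Line E lay below both shNS libraries at each time, at 0.260, 0.126 and 0.118 of the shNS mean at 0, 8 and 12 h. Across times the difference was -2.28 ± 0.11 in log2 units (SE; limma adjusted p = 1.11e-84), and it was called in all 23 alternatives, between -2.62 and -1.98, with an adjusted p of 0.00321 where each gene kept its own spread. Shares of the 0 h signal left divide a later shNS library by the 0 h library of the same replicate number, a pairing the labels do not state. Of its 0 h signal ALKBH5 kept 20.2% at 8 h in line E and 42.5% and 40.9% in shNS. The difference of that 8 h change was -0.83 ± 0.25 (limma adjusted p = 0.0614) and was not called.

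Of 24 measured genes of the m6A machinery, 0 rose and 7 fell across times, ALKBH5 included, where 22.4% of all genes rose and 19.8% fell. On the means of lines 2 were called lower. The median of the 24 was -0.16 and turned to 0.14 when libraries were scaled to the ribosomal protein genes. That scaling moved the median of all genes to 0.32, so a list's median under it is read against this shift. WTAP, the subunit that brings the writer complex to nuclear speckles, had a signal of 60.8, 8.21 and 2.69 in line E at 0, 8 and 12 h, and 72.1 and 65.2, 17.8 and 14.9, and 6.07 and 5.80 in shNS. Line E lay below both replicates at each time, by -0.66 ± 0.11 across times (limma adjusted p = 1.08e-07). RBM15, which guides the writer complex to its sites, changed by -0.48 ± 0.11 and the reader IGF2BP2 by -0.47 ± 0.11. METTL14, the RNA-binding partner of METTL3, changed by -0.42 ± 0.10, and its line E library lay between the replicates at 0 h. With each gene's own spread WTAP remained called (adjusted p = 0.0485), and RBM15 (0.0609) and METTL14 (0.0764) did not. On the means of lines RBM15 (limma adjusted p = 0.134), METTL14 (0.112) and IGF2BP2 (0.158) were not called. The catalytic subunit METTL3 (0.14, limma adjusted p = 0.351), the other eraser FTO (0.05, adjusted p = 0.71) and the reader YTHDF2 (-0.04, adjusted p = 0.781) were not called. FTO had a signal of 29.04 in line E and 27.3 and 26.2 in shNS at 0 h.

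Of genes that earlier work on ALKBH5 in cancer cells reported as its targets 4 were measured, of which 3 fell and 0 rose across times and 1 was called lower on the means of lines. USP1, a deubiquitinase, changed by -0.44 ± 0.11 and FOXM1, a transcription factor of the G2 and M phases, by -0.62 ± 0.12. With own spread neither was called (adjusted p = 0.124 for USP1 and 0.0585 for FOXM1), and USP1 was not called on the means of lines (limma adjusted p = 0.184). TACC3, a protein of the mitotic spindle, had a signal of 86.3, 16.9 and 6.00 in line E at 0, 8 and 12 h, and 82.0 and 77.1, 24.8 and 20.8, and 10.2 and 9.35 in shNS. It lay above both replicates at 0 h and below both at 8 and 12 h. Its change across times, -0.30 ± 0.12 (limma adjusted p = 0.0268), was called in 12 of 23 alternatives and turned to 0.06 under ribosomal protein scaling. MYC, the growth regulator, had 209, 4.76 and 3.39 in line E, and 183 and 184, 4.96 and 4.18, and 1.94 and 1.99 in shNS. Its change across times was 0.27 ± 0.11 (limma adjusted p = 0.0438), called in 14 of 23 alternatives.

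**Figure D1:**
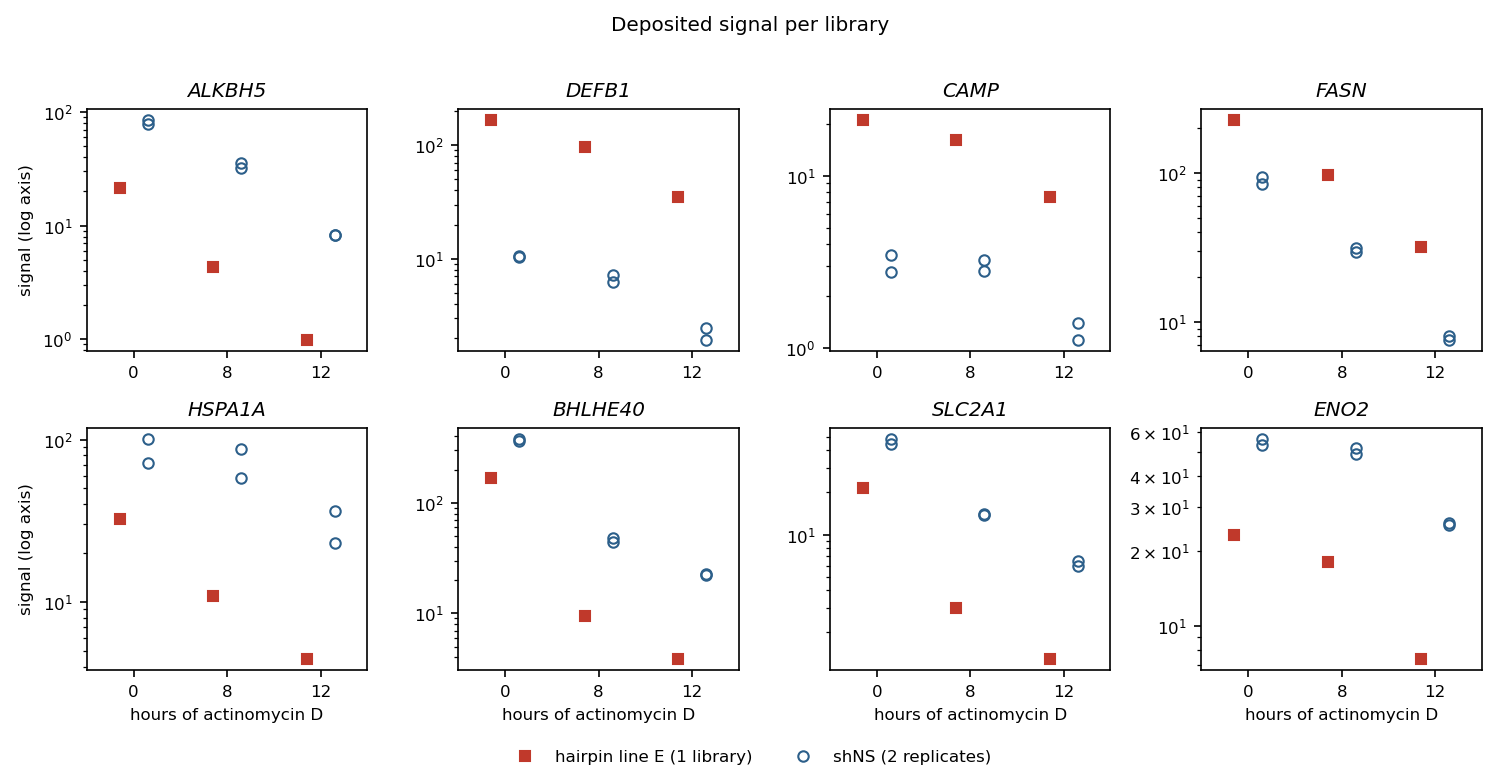
Deposited signal (log axis) of 8 genes in each library at 0, 8 and 12 h in actinomycin D, with 1 square for the line E library and 1 circle for each of the 2 shNS replicates. Line E lies below both replicates at every time for ALKBH5, HSPA1A, BHLHE40, SLC2A1 and ENO2 and above both for DEFB1, CAMP and FASN.

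The largest rise in line E was in genes of antimicrobial and granule proteins, which neutrophils and monocytes store or release against microbes. Of 14 measured members 11 rose and 0 fell, with a median of 1.33, and all 11 lay above both shNS libraries at all 3 times. DEFB1, a beta-defensin, had a signal of 165, 96.6 and 34.8 in line E at 0, 8 and 12 h, and 10.6 and 10.3, 6.22 and 7.15, and 2.45 and 1.92 in shNS. No line E value came near a replicate of its time, and line E stood at 15.7, 14.5 and 16.0 times the shNS mean (3.67 ± 0.11 across times, limma adjusted p = 5.97e-225, and 0.000627 with its own spread). CAMP, the precursor of the cathelicidin peptide LL-37 (chr3:48223347-48225491), had 20.9, 16.1 and 7.51 in line E, and 2.75 and 3.46, 2.81 and 3.27, and 1.11 and 1.40 in shNS. Its 12 h signal in line E thus lay above the 0 h signal of both replicates, and the change across times was 2.14 ± 0.10 (limma adjusted p = 2.44e-95).

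Further members of this group were proteases, their inhibitors and ribonucleases. PRTN3, the proteinase 3 of azurophil granules, had a signal of 481, 333 and 130 in line E, and 146 and 170, 126 and 130, and 45.96 and 48.95 in shNS. SLPI, a secreted inhibitor of such proteases, had 81.5, 53.1 and 21.1 in line E, and 23.6 and 22.6, 22.4 and 17.9, and 7.78 and 7.17 in shNS. Both lay above shNS at every time, by 1.47 ± 0.14 and 1.51 ± 0.12 across times. The protease CTSG, or cathepsin G, differed by 1.46 ± 0.17, with 3572 in line E and 1111 and 1149 in shNS at 0 h. The ribonuclease RNASE2 differed by 1.46 ± 0.13, with 369 in line E and 111 and 116 in shNS at 0 h. All 11 remained called on the means of lines, and the lowest median of the list in any alternative was 1.24. The list's share of 0 h signal left at 8 h had a median of 64.0% in line E and 85.3% and 77.9% in shNS, and the higher level was present at 0 h.

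Monocyte and myeloid maturation genes moved in both directions, with 9 of 19 measured members called higher and 5 called lower and a median of 0.14, and on the means of lines 5 were called higher and 2 lower. CD68, a glycoprotein of macrophage lysosomes, had a signal of 376, 299 and 128 in line E, and 154 and 159, 140 and 146, and 72.1 and 65.1 in shNS (1.07 ± 0.14, limma adjusted p = 5.29e-13). FCER1G, the signalling chain of Fc receptors, had 277, 202 and 81.3 in line E, and 116 and 123, 108 and 97.6, and 41.4 and 38.0 in shNS (1.07 ± 0.13). TYROBP, the adaptor of TREM and SIRP receptors, differed by 0.85 ± 0.10. The NADPH oxidase subunit NCF1 differed by 1.33 ± 0.10, and its reads can be shared with near-identical pseudogenes. The 5 members called lower, named after their values were seen, were GPNMB, LGALS3, CTSS, ITGB2 and FCN1, between -0.73 and -0.36. The receptors TREM1 (1.39 ± 0.12) and SIRPB1 (1.38 ± 0.11), which signal through TYROBP, were among the 15 largest rises of all genes.

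Of 14 myeloid transcription factors 5 rose and 5 fell, and on the means of lines 1 was called higher and 2 lower. IRF8, which directs monocyte development (chr16:85898803-85922609), had a signal of 192, 67.4 and 21.9 in line E, and 99.6 and 91.4, 35.8 and 31.0, and 8.81 and 8.55 in shNS. It was the only one of the 14 with a change over 1, at 1.08 ± 0.12 (limma adjusted p = 1.16e-16). CEBPA, the factor that granulocyte and monocyte precursors need, differed by 0.58 ± 0.12 and STAT3 by 0.57 ± 0.11, while CEBPB differed by -0.46 ± 0.11. With each gene's own spread CEBPB was not called (adjusted p = 0.0807), while CEBPA and STAT3 were. On the means of lines CEBPA, STAT3 and CEBPB were not called. Of 11 antigen presentation genes 3 rose and 1 fell (2 and 0 on the means of lines). CD74, the invariant chain of class II molecules, had 421, 355 and 135 in line E, and 172 and 156, 174 and 152, and 82.0 and 67.3 in shNS, a difference of 1.11 ± 0.14. Its master regulator CIITA differed by 0.68 ± 0.11. HLA-DRB5, which is not among the 11, rose as well (1.41 ± 0.13). Its reads cannot be told apart with certainty from those of other DRB genes.

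Of 17 measured genes of leukaemia self-renewal 3 rose and 4 fell, shares near the 22.4% and 19.8% of all genes. Their median of -0.03 turned to 0.26 under ribosomal protein scaling and lay above 0 after rescaling to the spike-ins. MYB, a factor that leukaemic cells of this kind depend on, differed by 0.64 ± 0.12 and LMO2 by 0.65 ± 0.12. JMJD1C, a JmjC-domain gene, differed by -0.71 ± 0.10. The 5 HOXA genes measured, HOXA3, HOXA5, HOXA9, HOXA10 and HOXA11, named after their values were seen, lay between -0.08 and 0.05, and none was called.

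Hypoxia genes, the targets that the HIF transcription factors switch on when oxygen is low, fell in line E. Of 32 measured members 24 fell and 3 rose, with a median of -0.72, and 23 lay below both shNS libraries at all 3 times. On the means of lines 19 remained called lower and 1 higher. Over the alternatives the median lay between -0.76 and -0.33, the value nearest 0 being that under ribosomal protein scaling. At 0 h, before the drug, 17 fell and 1 rose, where 3.19% of all genes fell and 18.6% rose. HIF1A itself (-0.05) was not called, and the 3 members that rose were HMOX1, the haem oxygenase (0.62 ± 0.09), and, named after their values were seen, VHL (0.48) and HIF1AN (0.31), which restrain HIF.

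The core letters of the HIF binding element are ACGTG, and they are shown here because the list is defined by HIF. A search for ACGTG or GCGTG on both strands, in the 300 bases from 250 before to 50 after the RefSeq start (GRCh38.p14), found at least 1 match for 21 of the 25 members with an entry (84%), against 65.6% of the entries of all tested genes and 48.4% of all 27305 entries. Of the members that fell 17 of 19 entries held a match (89.5%). A match of these letters is not a binding site, CACGTG is matched by ACGTG on both strands, and this share was not tested. The 30-base windows that hold most matches before the start of 5 named genes of the hypoxia and glycolysis lists are given 5′ to 3′ in the direction of the gene, with the matched letters in capitals.
BHLHE40 (chr3:4979263-4979292, plus strand): ACGTGcctggagtcacagggtagaaCACGT
ENO2 (chr12:6914449-6914478, plus strand): cacccgcgctcgtACGTGcgcctccgccgg
HK2 (chr2:74834063-74834092, plus strand): agccaatggGCGTGcgCACGTcactgatcc
P4HA1 (chr10:73096936-73096965, minus strand): gtgtgatcgagctCACGTagcgagggctgc
PFKFB4 (chr3:48556953-48556982, minus strand): gtgagttgggcatGCGTGgtcggaggccgg
The windows of BHLHE40, ENO2, HK2 and P4HA1 overlap an exon of another transcript of the same gene in GENCODE release 29, and that of PFKFB4 overlaps none. SLC2A1 has 0 matches in its 250 bases before the start.

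BHLHE40, a repressor that hypoxia and circadian signals induce, had a signal of 167, 9.42 and 3.86 in line E at 0, 8 and 12 h, and 378 and 363, 48.6 and 44.4, and 22.8 and 22.1 in shNS. It lay below both replicates at each time, and it was left at 5.65% of its 0 h signal at 8 h in line E and at 12.9% and 12.2% in shNS. Across times it changed by -1.87 ± 0.12 (limma adjusted p = 2.49e-47), and the difference of the 8 h change was -1.04 ± 0.24 (adjusted p = 0.0044). SLC2A1, the glucose transporter GLUT1, had 21.7, 2.99 and 1.28 in line E, and 48.3 and 44.7, 13.9 and 14.0, and 5.94 and 6.52 in shNS (-1.54 ± 0.11, limma adjusted p = 7.27e-41). ENO2, an isoform of the glycolytic enzyme enolase, had 23.1, 18.0 and 7.37 in line E, and 56.1 and 53.2, 51.5 and 49.1, and 26.0 and 25.3 in shNS (-1.44 ± 0.12, adjusted p = 1.48e-30). Line E held less than either replicate of both genes throughout. P4HA1, a collagen prolyl hydroxylase, had 54.7, 29.5 and 9.88 in line E, and 113 and 91.1, 86.9 and 71.7, and 29.98 and 28.79 in shNS (-1.25 ± 0.12). The histone demethylase KDM3A, a HIF target, differed by -1.17 ± 0.12.

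Glycolysis genes, which share SLC2A1, ENO2 and PFKFB4 with the hypoxia list, fell more often than they rose, with 14 of 24 called lower and 3 higher and a median of -0.38. On the means of lines 6 were called lower and 1 higher. Under ribosomal protein scaling the median was -0.01, with 8 higher and 7 lower. HK2, the inducible hexokinase that starts glycolysis, had a signal of 83.5, 16.9 and 5.65 in line E, and 182 and 164, 52.4 and 45.2, and 15.3 and 15.2 in shNS, a difference of -1.27 ± 0.12 (limma adjusted p = 5.58e-23). PFKFB4, which makes the activator of phosphofructokinase, had 52.8, 22.1 and 7.62 in line E, and 94.6 and 81.8, 39.8 and 34.2, and 14.2 and 14.1 in shNS, a difference of -0.75 ± 0.12. Line E lay below both replicates at each time for both genes. The 3 members that rose, named after their values were seen, were the lactate and pyruvate transporters SLC16A3 and SLC16A1 and the constitutive hexokinase HK1, between 0.36 and 0.68.

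Of 26 measured genes of cholesterol synthesis 15 rose and 0 fell, with a median of 0.33, and on the means of lines 4 were called higher and 0 lower. INSIG1, the sterol sensor that holds back SREBP, had a signal of 517, 102 and 38.7 in line E, and 256 and 224, 41.5 and 35.9, and 9.65 and 9.70 in shNS (1.46 ± 0.13). The pathway enzymes SQLE, or squalene epoxidase (0.83 ± 0.12), MVD, or mevalonate decarboxylase (0.79 ± 0.12), and LSS, or lanosterol synthase (0.71 ± 0.12), lay above both replicates at each time. Outside that list, FASN, the fatty acid synthase (chr17:82078333-82098332), had a signal of 225, 97.3 and 31.7 in line E, and 93.5 and 84.4, 31.2 and 29.3, and 7.99 and 7.48 in shNS. It lay above both replicates at every time, at 2.52, 3.21 and 4.10 times the shNS mean, a change of 1.63 ± 0.12 (limma adjusted p = 6.29e-37).

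**Figure D2:**
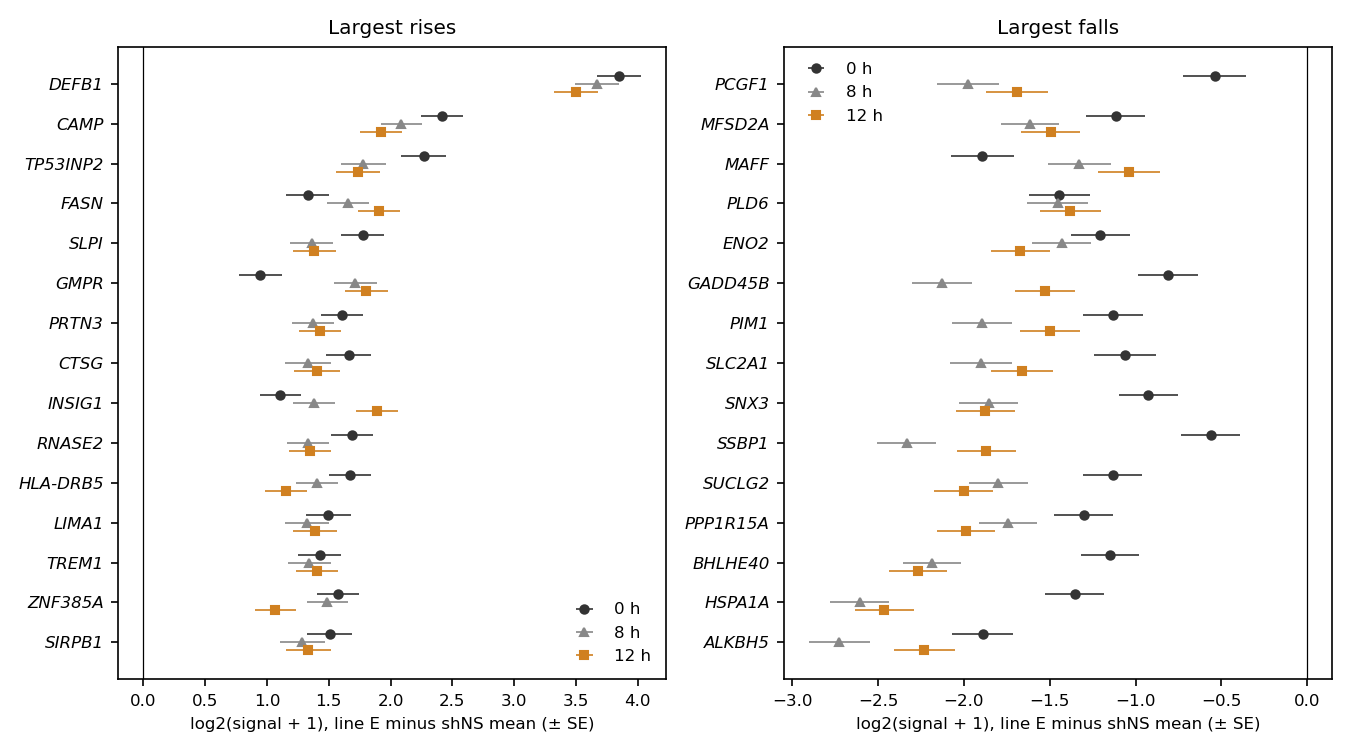
Difference in log2(signal + 1), line E minus the shNS mean, with its SE from limma, at 0, 8 and 12 h for the 15 largest rises (left) and the 15 largest falls (right) with line E outside both shNS replicates at all 3 times. DEFB1 stands at 3.85, 3.67 and 3.50 and ALKBH5 at -1.89, -2.73 and -2.23 at 0, 8 and 12 h. For several falls, among them ALKBH5, BHLHE40, HSPA1A, SSBP1, GADD45B and PCGF1, the point at 0 h lies nearer to 0 than those at 8 and 12 h. The medians of all genes were 0.18, -0.11 and -0.02 at these times.

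Immediate early genes, which cells induce within minutes of a stimulus, fell across times in 16 of 22 measured members and rose in 2, with a median of -0.47, and on the means of lines 11 were called lower. At 0 h 6 were called lower and 2 higher, with a median of -0.10, where 3.19% of all genes fell and 18.6% rose. PPP1R15A, the phosphatase subunit that ends the integrated stress response, had a signal of 51.5, 15.5 and 5.62 in line E, and 143 and 116, 59.0 and 49.5, and 26.5 and 24.1 in shNS (-1.68 ± 0.12, limma adjusted p = 1.07e-39). SGK1, a serum-induced kinase, had 26.1, 2.22 and 0.984 in line E, and 27.5 and 28.5, 10.9 and 10.3, and 4.99 and 4.66 in shNS. The 3 libraries lay close together at 0 h, and line E lay below both replicates from 8 h on. FOSL2, an AP-1 subunit, differed by -0.96 ± 0.11 and KLF6, a zinc finger factor, by -0.91 ± 0.12. PIM1, a survival kinase outside the list, had 51.5, 6.09 and 2.39 in line E, and 121 and 108, 27.1 and 23.8, and 8.52 and 8.65 in shNS (-1.51 ± 0.12). MAFF, a small bZIP factor, had 6.41, 4.50 and 1.80 in line E, and 27.5 and 25.6, 13.2 and 12.4, and 4.64 and 4.88 in shNS (-1.42 ± 0.11). Both lay below shNS at all times.

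Stress genes did not share a direction. Across times 22.4% of all genes rose and 19.8% fell, and the counts below are read against these shares. HSPA1A, the inducible HSP70 chaperone, had a signal of 32.6, 10.9 and 4.45 in line E, and 101 and 71.5, 88.1 and 58.1, and 36.4 and 23.1 in shNS. It was far below both replicates at each time, by -2.14 ± 0.12 across times (limma adjusted p = 2.69e-66, and 0.0154 with its own spread), although reads of the near-identical HSPA1B could not be separated. Of 34 heat shock and chaperone genes 5 rose and 9 fell (0 and 3 on the means of lines), with a median of 0.05 that turned to -0.10 without the 0 h libraries. Of 20 genes of the integrated stress response 8 rose and 2 fell (5 and 0 on the means of lines), among them the amino acid transporter SLC7A5 (0.77 ± 0.12) and the mitochondrial PEPCK gene PCK2 (0.83 ± 0.11). Of 25 endoplasmic reticulum chaperone genes 9 rose and 2 fell (7 and 1 on the means of lines). SDF2L1, a cofactor of BiP, differed by 0.83 ± 0.11, the stress transcription factor XBP1 by 0.74 ± 0.12 and the chaperone HYOU1 by -0.88 ± 0.12. With own spread XBP1 (adjusted p = 0.0532) and HYOU1 (adjusted p = 0.0675) were not called. Of 32 p53 target and apoptosis genes 10 rose and 11 fell (2 and 4 on the means of lines). TP53INP2, an autophagy regulator, had 49.3, 19.0 and 7.43 in line E, and 9.09 and 9.84, 4.91 and 4.75, and 1.46 and 1.603 in shNS. It lay above both replicates at all times (1.93 ± 0.11, limma adjusted p = 7.95e-69). GADD45B, a stress-induced gene, differed by -1.49 ± 0.12 and BBC3, the PUMA gene, by -0.65 ± 0.10.

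Mitosis genes fell in 47 of 57 measured members and rose in 0, with a median of -0.51, and on the means of lines 18 were called lower. At single times 4 were called lower at 0 h, 44 at 8 h and 46 at 12 h, with medians of -0.15, -0.64 and -0.64. Of all genes 3.19%, 19.6% and 13.6% were called lower at these times, with medians of 0.18, -0.11 and -0.02. The difference of the change itself was called lower for 0 of the 57 at 8 h and 7 at 12 h, against 0.986% and 2.16% of all genes. NUF2, a kinetochore subunit, had a signal of 39.8, 8.70 and 1.99 in line E, and 64.0 and 48.0, 25.6 and 20.9, and 5.77 and 6.54 in shNS (-1.01 ± 0.11, limma adjusted p = 5.74e-17). The kinesin KIF14 (-0.99 ± 0.11), the condensin subunit NCAPG (-0.87 ± 0.11) and the cohesin protector SGO1 (-0.85 ± 0.10) also lay below both replicates at each time. Of 47 DNA replication genes 5 rose and 9 fell, shares not above those of all genes (22.4% and 19.8%), and on the means of lines 0 were called higher and 1 lower. CCND3, the cyclin D3 gene, had 835, 435 and 141 in line E, and 349 and 357, 187 and 187, and 52.2 and 51.1 in shNS, all line E values lying above shNS of the same time (1.29 ± 0.14).

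Of 81 measured genes of cytoplasmic ribosomal proteins, which form the subunits of the ribosome, 0 were called in either direction at 0 h (median 0.01), 62 were called lower at 8 h (median -0.60) and 66 at 12 h (median -0.59), with 0 called higher. Of all genes 3.19%, 19.6% and 13.6% were called lower at 0, 8 and 12 h, with medians of 0.18, -0.11 and -0.02. The difference of the change was called lower for 2 at 8 h and 5 at 12 h, against 0.986% and 2.16% of all genes. Across times 37 fell, with a median of -0.38, and 3 fell on the means of lines. RPL5, a subunit of the large ribosomal particle, had a signal of 1676, 732 and 191 in line E, and 2120 and 1995, 1672 and 1383, and 429 and 368 in shNS (-0.80 ± 0.17, limma adjusted p = 1.44e-05). Of 19 snoRNA host genes, whose mRNAs share terminal oligopyrimidine starts with these, 11 fell and 4 rose (7 and 1 on the means of lines), with a median of -0.33 that turned to 0.02 under ribosomal protein scaling. Of 78 mitochondrial ribosomal protein genes 35 rose and 2 fell (10 and 0 on the means of lines), with a median of 0.23, among them MRPL14 (0.78 ± 0.11), MRPL41 (0.77 ± 0.11) and MRPS18A (0.75 ± 0.11). Of the 78, 35 lay above both shNS libraries at all times and 0 below.

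**Figure D3:**
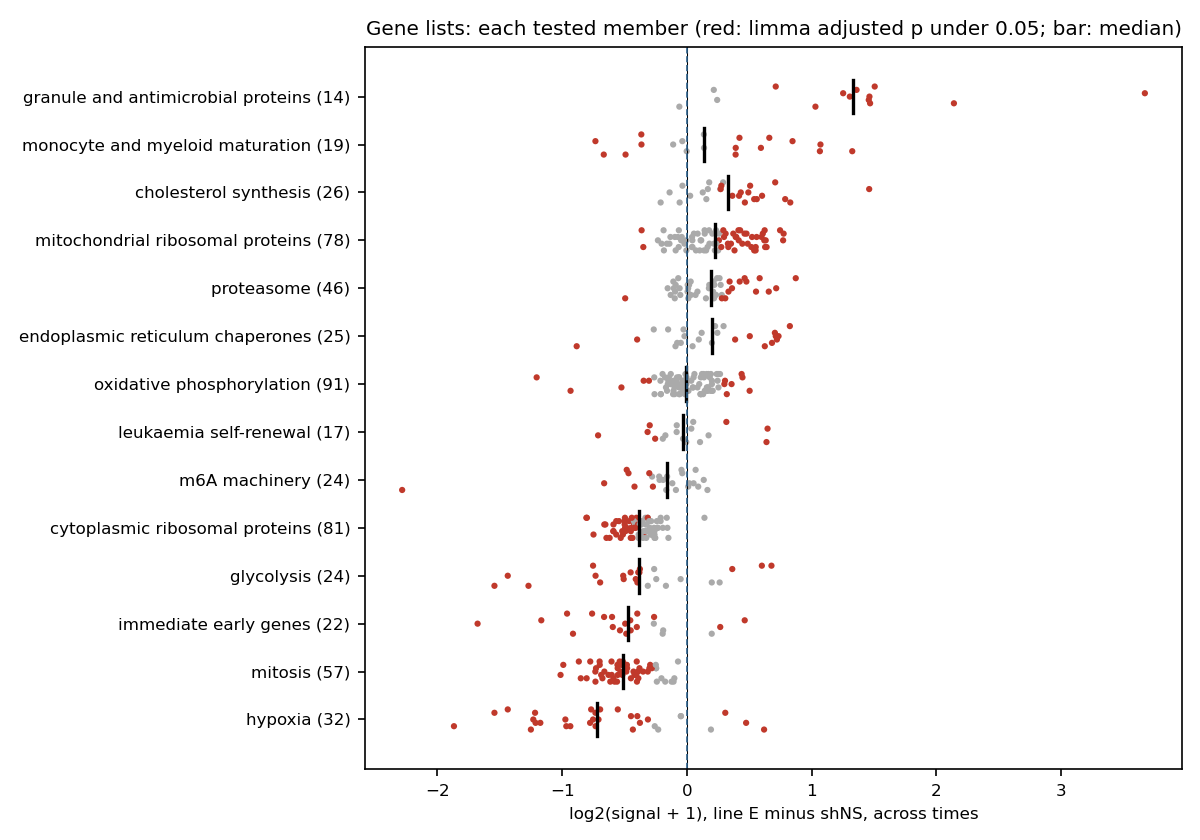
Difference in log2(signal + 1), line E minus shNS across times, of every measured member of 14 gene lists (number of members in brackets), red where the limma adjusted p was under 0.05, with a black bar at each list's median and a dashed line at the median of all genes (0.01). Granule genes lie to the right (median 1.33) and hypoxia genes to the left (median -0.72); ribosomal protein scaling, which sets ribosomal proteins to 0.01 by construction and moves all genes to 0.32, gives 0.14 for the m6A machinery, 0.26 for self-renewal and 0.38 for oxidative phosphorylation.

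Among the remaining lists the proteasome had 13 of 46 members higher and 1 lower (3 and 0 on the means of lines), with a median of 0.20 and the catalytic subunit PSMB5 at 0.87 ± 0.12. Nucleolar genes of ribosome biogenesis had 21 of 58 higher and 4 lower (3 and 1 on the means of lines), with a median of 0.10. Oxidative phosphorylation had 7 of 91 higher and 5 lower (0 and 2 on the means of lines), with a median of 0.00 whose sign changed in 8 of 23 alternatives. UQCR11, a subunit of respiratory complex III, had a signal of 59.3, 24.0 and 6.23 in line E, and 84.5 and 64.9, 75.4 and 65.5, and 27.3 and 20.9 in shNS (-1.20 ± 0.12). Across times UQCR11 was not called with its own spread (adjusted p = 0.0508). Medians of mRNA decay factors (7 of 47 higher, 19 lower, -0.17), translation factors (6 of 57 higher, 18 lower, -0.19), histone modifiers (2 of 59 higher, 17 lower, -0.13) and zinc finger genes (23 of 168 higher, 44 lower, -0.08) stood at 0.16, 0.20, 0.17 and 0.14 in that order under ribosomal protein scaling, where the median of all genes was 0.32. Interferon response genes had 6 of 23 higher and 2 lower, lysosome genes 11 of 50 higher and 9 lower, aminoacyl-tRNA synthetases 11 of 36 higher and 3 lower, and spliceosome genes 7 of 69 higher and 9 lower. On the means of lines each of these 8 lists kept at most 4 higher and 10 lower calls. Of all genes 22.4% were higher and 19.8% lower across times. Calls on the means of lines are not read against these shares but against the fewer calls of all genes under that setting, given above.

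Other large changes fell outside the lists, except VIM, of the cytoskeleton list, and ZNF385A, of the zinc finger list. Of 28 cytoskeleton genes 6 rose and 6 fell across times, where 22.4% of all genes rose and 19.8% fell. Their median of 0.12 turned to -0.10 without the 0 h libraries. SUCLG2, the GTP-forming succinyl-CoA ligase subunit, had a signal of 43.2, 20.1 and 5.43 in line E, and 100 and 91.9, 79.7 and 66.0, and 26.4 and 23.2 in shNS (-1.65 ± 0.12). SNX3, an endosomal sorting nexin, had 49.6, 15.1 and 3.69 in line E, and 110 and 82.8, 65.5 and 49.8, and 15.9 and 16.6 in shNS (-1.55 ± 0.12). PLD6, a mitochondrial phospholipase, and MFSD2A, a lysolipid transporter, differed by -1.43 ± 0.11 and -1.41 ± 0.12. VIM, the vimentin gene, had 104, 63.0 and 21.6 in line E, and 203 and 204, 160 and 158, and 58.3 and 60.3 in shNS (-1.23 ± 0.13). All 5 lay below both replicates at each time. GMPR, the guanosine monophosphate reductase, had 112, 51.4 and 15.3 in line E, and 58.7 and 56.8, 15.6 and 14.3, and 3.69 and 3.62 in shNS, above both at each time (1.49 ± 0.12). LIMA1, an actin-binding protein, and ZNF385A, a zinc finger gene, differed by 1.40 ± 0.11 and 1.38 ± 0.10.

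At single times the direction of the calls shifted. At 0 h 1774 genes were higher (18.6%) and 304 lower (3.19%) in line E, with a median of all genes of 0.18. At 8 h 772 were higher (8.1%) and 1871 lower (19.6%), with a median of -0.11. At 12 h 938 were higher (9.84%) and 1296 lower (13.6%), with a median of -0.02. Each of these tests sets 1 library against 2 and takes the spread from the 3 shNS pairs, on the assumption that line E varies like them. With each gene's own spread 12, 5 and 5 genes were called at 0, 8 and 12 h. Under median-of-ratios scaling the split was 1995 higher and 2001 lower at 0 h and 2597 and 2537 at 8 h, after rescaling to the spike-ins it was 1372 and 1345 at 8 h, and under ribosomal protein scaling it was 3054 and 664 at 0 h, 6072 and 439 at 8 h and 6250 and 374 at 12 h.

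The share of the 0 h signal left in the drug was lower in line E for the median gene, at 33.6% in line E and 42.2% and 41.1% in shNS at 8 h, and at 10.7% in line E and 11.9% and 12.9% in shNS at 12 h. Ribosomal protein genes had kept a median of 57.2% in line E and 93.5% and 83.2% in shNS at 8 h, and 18.2% in line E and 31.8% and 27.6% in shNS at 12 h. Immediate early genes had kept 26.4% in line E and 50.8% and 45.2% in shNS at 8 h. Mitosis genes had kept 16.6% in line E and 25.1% and 25.8% in shNS at 8 h, and 4.08% in line E and 6.53% and 7.38% in shNS at 12 h. For nucleolar genes the 12 h values were 7.10% in line E and 6.79% and 6.95% in shNS, and for mitochondrial ribosomal proteins 8.09% in line E and 7.29% and 8.37% in shNS. These shares depend on the scaling to spike-ins. In shNS they also depend on pairing libraries by replicate number, which the labels do not state.

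**Figure D4:**
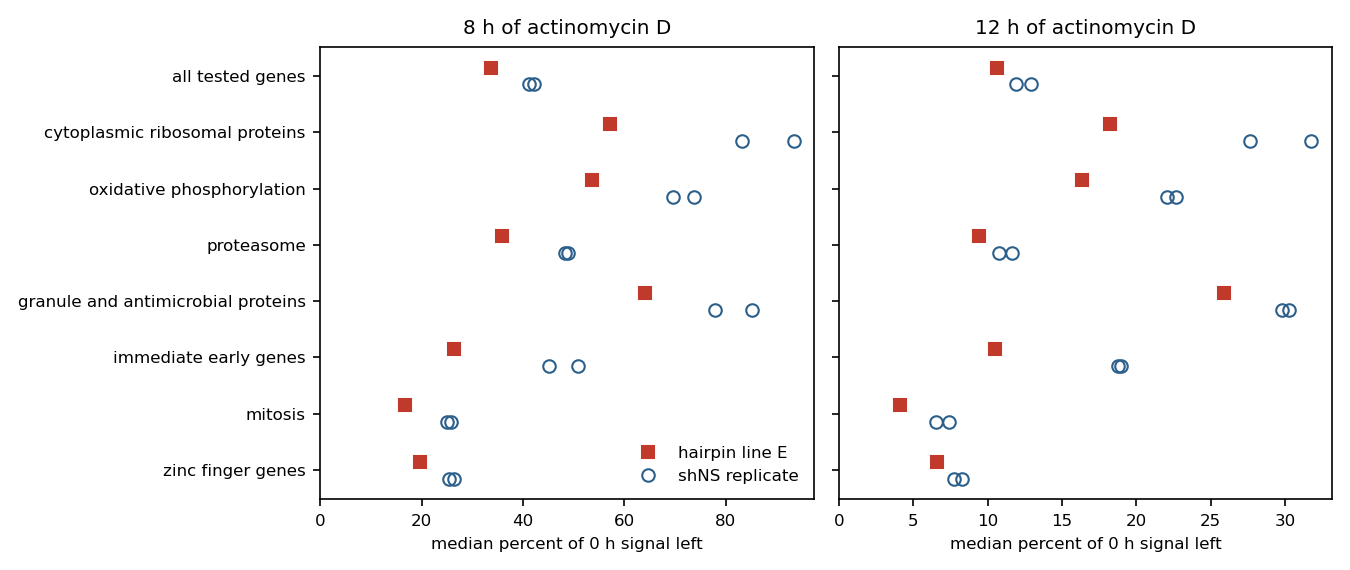
Median percent of the 0 h signal left at 8 h (left) and 12 h (right) of actinomycin D for all 9529 genes and 7 lists, with 1 square for line E and 1 circle for each of the 2 shNS replicates. Libraries of shNS were paired across times by replicate number, which the labels do not state. Line E lies below both replicates in both panels for each of the 8 rows drawn, from 33.6% against 42.2% and 41.1% for all genes to 57.2% against 93.5% and 83.2% for ribosomal proteins at 8 h.

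The difference of the change from 0 h, line E minus shNS, was called for 102 genes at 8 h, 8 higher (0.084%) and 94 lower (0.986%), and for 224 genes at 12 h, 18 higher (0.189%) and 206 lower (2.16%). The medians of all genes were -0.29 and -0.20, so single genes are read against that common shift. With each gene's own spread 0 were called at either time, although 1668 and 1661 genes had an unadjusted p under 0.05 in the limma fit that gave 102 and 224. Under median-of-ratios scaling, which removes the shift, 42 were higher and 49 lower at 8 h and 531 and 725 at 12 h, and under ribosomal protein scaling 802 were higher and 27 lower at 8 h and 1836 and 52 at 12 h. Without shNS 12 h replicate 1 or replicate 2 the counts were 26 and 26 at 8 h and 18 and 52 at 12 h, without shNS 0 h replicate 1 or replicate 2 they were 101 and 72 at 12 h, without shNS 0 h replicate 2 the count was 52 at 8 h, and without shNS 8 h replicate 1 or replicate 2 they were 594 and 593 at 12 h, with 731 at 8 h without replicate 2.

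SSBP1, the mitochondrial single-stranded DNA binding protein, had a signal of 71.0, 12.8 and 3.12 in line E, and 111 and 99.7, 74.3 and 62.8, and 14.5 and 13.7 in shNS. It kept 18.0% of its 0 h signal at 8 h in line E and 66.8% and 62.9% in shNS, a difference of change of -1.77 ± 0.24 (limma adjusted p = 2.98e-10). SGK1 kept 8.48% in line E and 39.6% and 36.0% in shNS (-1.75 ± 0.26, adjusted p = 8.37e-09). PCGF1, a Polycomb subunit, had 22.2, 1.64 and 0.707 in line E, and 33.0 and 32.4, 9.70 and 9.09, and 4.69 and 4.35 in shNS. It kept 7.40% at 8 h in line E and 29.4% and 28.1% in shNS (-1.44 ± 0.26, limma adjusted p = 1.15e-05). In all 3 genes line E kept less than either replicate. UQCR11 kept 10.5% at 12 h in line E and 32.3% in each shNS replicate (-1.47, limma adjusted p = 1.2e-06).

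A smaller set kept more of its signal in line E. GPR146, an orphan receptor, had 10.5, 1.80 and 1.18 in line E, and 39.4 and 35.9, 4.80 and 3.56, and 2.04 and 1.78 in shNS. It was low in line E before the drug (-1.75 at 0 h) and kept 11.3% at 12 h in line E and 5.18% and 4.97% in shNS (1.34, limma adjusted p = 4.42e-05), while its difference at 8 h lost the call in 6 of 16 alternatives. RN7SK, the small nuclear 7SK RNA made by RNA polymerase III, had 58.9, 122 and 172 in line E, and 93.2 and 72.4, 75.3 and 39.6, and 79.5 and 53.2 in shNS. In line E both later values exceeded that at 0 h (difference of change 1.61 at 8 h and 1.86 at 12 h). In shNS no later value exceeded the 0 h value of the same replicate number, but the labels do not tie these numbers across times. Both later values of shNS replicate 1 exceeded the 0 h value of replicate 2. The 8 h call of RN7SK was lost under median-of-ratios scaling and with its own spread, and the 12 h call with its own spread. The libraries were of poly(A) RNA, and how far the RN7SK signal follows the amount of 7SK RNA was not tested. RN7SL1 and RN7SL2, near-identical copies of the signal recognition particle RNA, were also called, but shNS replicate 1 at 0 h stood at 1982 and 3410 and replicate 2 at 94.4 and 133, with 110 and 143 in line E. Without shNS 0 h replicate 1 their 0 h differences turned to 0.22 and 0.10, so these calls rest on that library.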

How the data were processed

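Poly(A) RNA libraries of NOMO-1 cells were analysed from the deposited table, which holds 1 expression signal per gene and library. The authors' unit before scaling is not stated. STAR, RSEM and the build GRCh38 are listed, without versions, per the submitters' processing notes. Columns were matched to labels by name, and 3 columns of the other hairpin line were not used. The letter E is not tied to a hairpin number, so line E is named by its letter.

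All 9529 genes had a mean signal of at least 1 (lowest 1.17) and entered the fits as log2(signal + 1). The fits were made with limma 3.58.1 (R 4.3.3), using empirical Bayes moderation and a mean-variance trend. The comparison across times used time and line as terms on 9 libraries (5 residual degrees of freedom). Comparisons at single times and of changes from 0 h used 6 group means (3 residual degrees of freedom). The prior degrees of freedom were infinite, so all genes of like signal share 1 spread and the p-values are smaller than 9 libraries alone would give. Nothing in the labels says that replicates were separate cultures, so p-values cover only the differences between these libraries, possibly technical ones. The fits were first tested on simulated data in which 200 genes differed. The simulated noise was independent in each library, with the fitted spread in line E and shNS alike. That test therefore could not check whether libraries of a line are independent or whether line E varies like shNS.

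The rule for named genes took MYC, TACC3, ALKBH5, FTO, YTHDF2, METTL3 and METTL14, the 15 largest called rises and falls with a mean of at least 5 and line E outside both shNS libraries at all 3 times, up to 4 called members of each gene list, and the 5 largest called rises and falls at each time and for each change. AXL, also in the rule, was not among the tested genes. Of 164 named genes called across times, 128 were also called with each gene's own spread. Members, lists and rules were chosen with earlier results of these data known. Lists are described by counts and medians beside those of all genes, with no set test. Coordinates are from GENCODE release 29, where 9144 of 9529 symbols were found, and promoter sequences are from RefSeq.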

Additional observations from a re-analysis of the deposited data

Results flagged for a closer look

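The difference of the change from 0 h, tested as an interaction term in limma, set line E apart from shNS for 102 genes at 8 h and 224 genes at 12 h, and each gene below was picked because this test of the difference itself was called. At 8 h the log2 differences, line E minus shNS, were 2.76 for RN7SL2, 2.28 for RN7SL1, 1.61 for RN7SK, 1.61 for MIR4461 and 0.87 for GPR146, whose call at 8 h was lost in 6 of 16 alternatives, which were a pseudocount of 0.1, own spread and leaving out shNS 0 h replicate 1, 8 h replicate 2 or either 12 h replicate. On the lower side they were -1.86 for MIR6506, -1.84 for RPS14P3, -1.77 for SSBP1, -1.75 for SGK1 and -1.53 for TMEM256-PLSCR3. At 12 h they were 2.25 for RN7SL1, 2.11 for RN7SL2, 1.86 for RN7SK, 1.53 for SNORD3A and 1.34 for GPR146, and on the lower side -1.95 for SNORD36A, -1.59 for MIR6506, -1.47 for UQCR11, -1.46 for SGK1 and -1.39 for CHMP3. Small RNAs, pseudogenes and a readthrough row share reads with host genes or near-identical copies, so the values of RN7SL1, RN7SL2, RN7SK, MIR4461, MIR6506, SNORD3A, SNORD36A, RPS14P3 and TMEM256-PLSCR3 are uncertain. The libraries were of poly(A) RNA, and how far rows of small RNAs follow their amounts was not tested. With each gene's own spread 0 genes were called at either time, where the limma fit counted 1668 and 1661 genes at an unadjusted p under 0.05.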

How the results depend on the processing

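Across times the 4016 calls became 6692 under ribosomal protein scaling (6121 higher, 571 lower), 2221 with each gene's own spread (an alternative chosen after seeing the data), 2008 without the 12 h libraries and 1070 on the mean of each line or replicate. All 1070 were among the 4016. With a correlation of 0.198 estimated within lines there were 2885. Leaving out 1 library gave 2835 to 4419. Without the 0 h libraries the split was 1649 higher and 2777 lower, and without the 8 h libraries 2008 and 954. ALKBH5 was called throughout, between -2.48 and -2.06 with 1 library left out. At 0 h the 2078 calls became 3996 under median-of-ratios scaling, 3718 under ribosomal protein scaling and 12 with own spread, and 986 to 2689 without 1 library (986 and 991 without shNS 12 h replicate 1 or 2, 1215 without shNS 0 h replicate 2). At 8 h the 2643 became 5134, 6511 and 5 under the same settings, and 1548 to 3195 without 1 library (1548 without either shNS 12 h replicate). At 12 h the 2234 became 4910, 6624 and 5, and 717 to 2671 without 1 library (717 and 925 without shNS 12 h replicate 1 or 2). The difference of the 8 h change (102) became 829 under ribosomal protein scaling, 63 after rescaling to the spike-ins and 0 with own spread, and 26 to 731 without 1 library. That of the 12 h change (224) became 441 with a pseudocount of 0.1, 1256 under median-of-ratios scaling, 1888 under ribosomal protein scaling, 398 after rescaling to the spike-ins and 0 with own spread, and 18 to 594 without 1 library. The shNS 12 h libraries enter the comparisons at 0 h, at 8 h and of the 8 h change only through the spread shared among genes. The median absolute difference between the 2 shNS replicates was 0.165, 0.196 and 0.0772 in log2 units at 0, 8 and 12 h. Beyond that, the cause of these moves was not tested. The labels do not say whether shNS replicates of the same number belong together across times, and the means of lines average shNS by that number. Differences of replicates 1 and 2 correlated at 0.271 between 0 and 8 h, 0.0651 between 0 and 12 h and 0.138 between 8 and 12 h. The median of replicate 1 minus replicate 2 was 0.159, 0.195 and 0.0551 in log2 units at 0, 8 and 12 h. With that number as a replicate block 4237 genes were called across times, 4452 at 0 h, 4950 at 8 h, 4440 at 12 h, and 3211 and 2599 for the 8 and 12 h differences of change.

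Turns of sign are given here where the main value or its alternative was called. Those with neither called, as for FTO (0.054, lowest -0.0078) and SNORD3A (-0.17, highest 0.22) across times, are left out. Signs turned for TACC3 (0.057) and YTHDF2 (0.26) under ribosomal protein scaling. Without the line E 0 h library, and likewise without all 0 h libraries, they turned across times for MIR4461 (0.034), MIR6506 (-0.49), RN7SL1 (0.30), RN7SL2 (0.20) and TMEM256-PLSCR3 (-0.045), and for CHMP3 (-0.27) without all 0 h libraries. Without shNS 0 h replicate 1 they turned for RN7SL1 (0.28) and RN7SL2 (0.18) across times, for both at 0 h (0.22 and 0.10) and for RN7SL2 in the difference of the 12 h change (-0.23). With 1 library left out, the values across times thus ran from -0.77 to 0.034 for MIR4461, from -0.49 to 0.44 for MIR6506, from -0.92 to 0.30 for RN7SL1, from -1.17 to 0.20 for RN7SL2 and from -0.045 to 0.72 for TMEM256-PLSCR3, those at 0 h from -4.15 to 0.22 for RN7SL1 and from -4.56 to 0.10 for RN7SL2, and the difference of the 12 h change of RN7SL2 from -0.23 to 4.44. Of other single-gene values 257 lost their call and 9 gained one. A further 5242 results, single-gene values and list medians, were counted as unchanged. For a single gene this meant the same side of the threshold, and a turn of sign with neither value called was let pass. For a list it meant a median that moved by no more than 1 standard deviation of its members, so some of these medians changed sign. The filter at a mean of 1 removed no gene, and leaving it out changes nothing. Depth is unknown, and at 12 h, with a median gene signal of 2.81 in line E and 2.85 and 2.74 in shNS, the pseudocount of 1 compresses differences.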
